A study of Homo sapiens with 8 samples.

Results

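Antigen presentation in LS174T cells, an established line from a human colon adenocarcinoma, was followed through 9 genes: the class II chaperone CD74 and the class II regulator CIITA, the class I heavy chains HLA-B, HLA-C and HLA-E, their light chain B2M, the peptide transporter subunit TAP1, and the immunoproteasome subunits PSMB8 and PSMB9. The genes were taken by name, and 9 of 9 had a row among the 57736 Ensembl identifiers of each file, of which 39501 carried a symbol. All 9 also passed the filter on low values, CIITA with the smallest values. The list was drawn up with results of these data known, including the differences of CD74 in both lines, so the differences of these 9 genes are given as a description without a test. Tests are given for 63 other genes of the pathway, grouped in 7 lists by function. These lists were also chosen with earlier results of these data known, so their counts of calls are a description.

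The cells were 2 LS174T derivatives that overexpress the Tet repressor and carry a hairpin switched on by doxycycline. One hairpin targets ASCL2, which encodes a stem cell transcription factor of the gut, and the other WiNTRLINC1, a long non-coding RNA under Wnt control. Each line was sequenced as 2 untreated libraries and 2 libraries grown for 3 days with doxycycline at 1 ug/ml, giving 8 libraries in 4 groups. The study asked which genes change on loss of either transcript. Per the design text, clones of the WiNTRLINC1 line were screened by RT-PCR, and the ASCL2 line had been made earlier. The sample titles set the groups here, while the genotype label of every sample names the other target. Since no library came from cells given the drug but lacking the hairpin, effects of the drug itself and of the knockdown cannot be told apart. The labels leave unsaid whether replicates came from separate cultures, and the p-values rest on a spread between libraries that may be technical only.

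Class I molecules show peptides of the cell's own proteins to CD8 T cells. The proteasome cuts these proteins, the transporter of TAP1 and TAP2 moves the peptides into the endoplasmic reticulum, and a heavy chain with B2M binds them there. Immune cells, and other cells under interferon gamma, replace the catalytic subunits PSMB6, PSMB7 and PSMB5 by PSMB9, PSMB10 and PSMB8. Class II molecules show endosomal peptides to CD4 T cells. CD74, the invariant chain, holds their groove closed until endosomal proteases remove it, and HLA-DM then exchanges its remnant for a peptide. CIITA switches on class II genes together with CD74, and NLRC5 does the same for class I genes, both through the RFX and NF-Y factors bound at the promoter. CD74 is also known as a surface receptor for the cytokine MIF together with CD44.

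The promoters of these genes are shown because the regulators named above act there. RefSeq promoter windows of 300 bases (GRCh38.p14, 250 bases before and 50 after the start site) were found for 7 of the 9 genes, and CIITA and HLA-E had none. The stretches below end at the base before the start site and read 5′ to 3′ on the gene's strand. Capitals mark CCAAT, the core of the NF-Y site (or ATTGG on the other strand), TGACG, the core of CREB-like sites (or CGTCA), and the core of the interferon-stimulated response element, which is GAAA, any 2 bases and GAAA (or TTTC, any 2 bases and TTTC).
CD74 (chr5:150412911-150413110, minus strand): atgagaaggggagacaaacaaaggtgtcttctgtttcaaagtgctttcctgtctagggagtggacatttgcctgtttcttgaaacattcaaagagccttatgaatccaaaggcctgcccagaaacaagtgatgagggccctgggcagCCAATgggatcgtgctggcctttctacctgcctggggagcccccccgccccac
HLA-B (chr6:31357180-31357329, minus strand): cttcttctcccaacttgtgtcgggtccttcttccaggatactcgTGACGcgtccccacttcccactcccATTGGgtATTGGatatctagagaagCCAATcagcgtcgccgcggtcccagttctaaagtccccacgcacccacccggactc
HLA-C (chr6:31272093-31272242, minus strand): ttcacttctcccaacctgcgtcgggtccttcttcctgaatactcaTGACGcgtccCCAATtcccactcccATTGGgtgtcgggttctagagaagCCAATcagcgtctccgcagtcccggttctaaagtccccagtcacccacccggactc
B2M (chr15:44711317-44711516, plus strand): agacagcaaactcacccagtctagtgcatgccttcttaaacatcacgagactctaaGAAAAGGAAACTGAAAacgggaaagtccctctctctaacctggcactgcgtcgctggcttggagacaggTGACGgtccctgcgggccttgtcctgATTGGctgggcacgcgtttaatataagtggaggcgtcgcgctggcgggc
TAP1 (chr6:32853705-32853904, minus strand): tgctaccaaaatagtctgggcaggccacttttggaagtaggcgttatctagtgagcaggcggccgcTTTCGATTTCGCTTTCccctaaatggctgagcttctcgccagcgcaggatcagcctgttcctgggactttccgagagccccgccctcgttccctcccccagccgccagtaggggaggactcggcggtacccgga
PSMB9 (chr6:32853992-32854191, plus strand): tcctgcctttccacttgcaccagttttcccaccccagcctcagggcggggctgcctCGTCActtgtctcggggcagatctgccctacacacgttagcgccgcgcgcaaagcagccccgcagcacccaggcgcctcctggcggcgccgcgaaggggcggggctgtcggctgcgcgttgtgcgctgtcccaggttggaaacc
In the CD74 stretch the CCAAT match lay 53 bases upstream of the start. HLA-B and HLA-C both had TGACG, 106 and 105 bases upstream, and CCAAT or its reverse complement at 81, 74 and 56 bases in HLA-B and at 95, 80 and 56 bases in HLA-C. B2M had ATTGG 49 and TGACG 75 bases upstream, and 2 overlapping matches of the interferon-stimulated core that began 144 and 138 bases upstream. TAP1 had 2 such overlapping matches, on the other strand, that began 134 and 128 bases upstream. PSMB9 had CGTCA 144 bases upstream. Outside the stretches shown, HLA-C had ATTGG 192, TAP1 ATTGG 249 and PSMB9 CCAAT 243 bases upstream. The windows of TAP1 and PSMB9 overlap, and these matches of TAP1 and PSMB9 are the same bases of chromosome 6 read on opposite strands. PSMB8, whose promoter is not printed, had TGACG 69 bases upstream in the first of its 2 windows. In the second window a match of the interferon-stimulated core began 4 bases upstream of the start site and ran across it. Of all 35116 windows, searched on both strands, 34.6% held CCAAT, 24.6% TGACG and 3.57% the interferon-stimulated core. The start sites of TAP1 and PSMB9 lie 488 bases apart on chromosome 6, and the genes point away from each other. No window of these 7 genes held CAGCTG, an E-box form that ASCL factors are known to bind, which 17.9% of all windows held. The TCF/LEF core CTTTGAT (or ATCAAAG), held by 2.62% of all windows, was found in the second of 2 TAP1 windows. A match is a description of letters, not of a bound site.

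The deposited value of a gene is a whole number that behaves as a read count scaled per library, and the totals were close, from 21524463 to 22941231 per library. The targeted gene ASCL2 stood at 2855 and 3373 untreated and 532 and 586 treated in the ASCL2 line, and at 2540 and 2034 against 805 and 697 in the WiNTRLINC1 line. Treated libraries were lower in both, so this does not show which of the conflicting labels holds. Of the 7 markers of colon epithelium, KRT8 stood between 63926 and 115955, EPCAM between 4835 and 9218, VIL1 between 3755 and 7079, CDX2 between 2241 and 4484 and CDX1 between 1636 and 3611. CDH1 was lower, at 486 to 832, and the differentiation marker KRT20 was lowest, at 124 to 269. The 12 leukocyte markers, which matter here because such cells carry CD74 and class II, summed to between 71 and 151 per library, with the common leukocyte antigen PTPRC between 5 and 13 and the B cell marker MS4A1 between 1 and 14. In the ASCL2 line that sum was 126 and 151 untreated and 146 and 111 treated, and in the WiNTRLINC1 line 126 and 71 against 93 and 78, so the groups overlapped within each line. The 6 fibroblast markers summed to 299 and 304 untreated and 184 and 193 treated in the ASCL2 line, mostly COL1A1, and to 96 and 107 against 135 and 94 in the WiNTRLINC1 line. Their part in the results was not tested.

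CD74 had the largest differences of the 9 genes in both lines. Untreated ASCL2-line libraries held deposited values of 185 and 196, and both treated ones 33. WiNTRLINC1-line libraries held 619 and 638 without doxycycline and 218 and 211 with it. The treated libraries lay far below the untreated ones of their own line, and the 4 groups did not overlap in any pair of neighbours: untreated WiNTRLINC1 cells were highest, treated WiNTRLINC1 cells lay just above untreated ASCL2 cells, and treated ASCL2 cells were lowest. As log2(value + 1), a scale that shrinks the change of genes with low values, the difference was -2.49 ± 0.147 (SE, n = 2 per group) for the ASCL2 line and -1.55 ± 0.147 for the WiNTRLINC1 line. Untreated WiNTRLINC1 cells had 3.29-fold more CD74 than untreated ASCL2 cells. Within a library, the ratio of CD74 to ASCL2 was 0.0648 and 0.0581 untreated and 0.0620 and 0.0563 treated in the ASCL2 line, and 0.244 and 0.314 against 0.271 and 0.303 in the WiNTRLINC1 line. The ratio thus overlapped between treated and untreated libraries within each line and was higher in every WiNTRLINC1 library than in any ASCL2 one. In bulk RNA, fewer cells with a transcript and less of it per cell cannot be told apart.

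CIITA, the class II regulator, was near the lower limit of the data. It stood at 12 and 10 untreated and 6 and 2 treated in the ASCL2 line, and at 9 and 11 against 6 and 7 in the WiNTRLINC1 line. Treated libraries were lower in both lines, yet a few scaled reads make up the gap, and the log2 differences were -1.38 ± 0.557 and -0.55 ± 0.557 (SE, n = 2 per group). Without the first or the second treated library of the ASCL2 line the first of these became -2.00 or -0.77. CIITA overlaps DEXI, which lies on the opposite strand and stood between 745 and 1252, and reads of the shared stretch cannot be assigned without strand. It also shares 13.6% of its windows of 75 bases in GENCODE 29 with AC133065.3, an annotated transcript on the same strand, the largest share of the 9 genes.

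**Figure D1:**
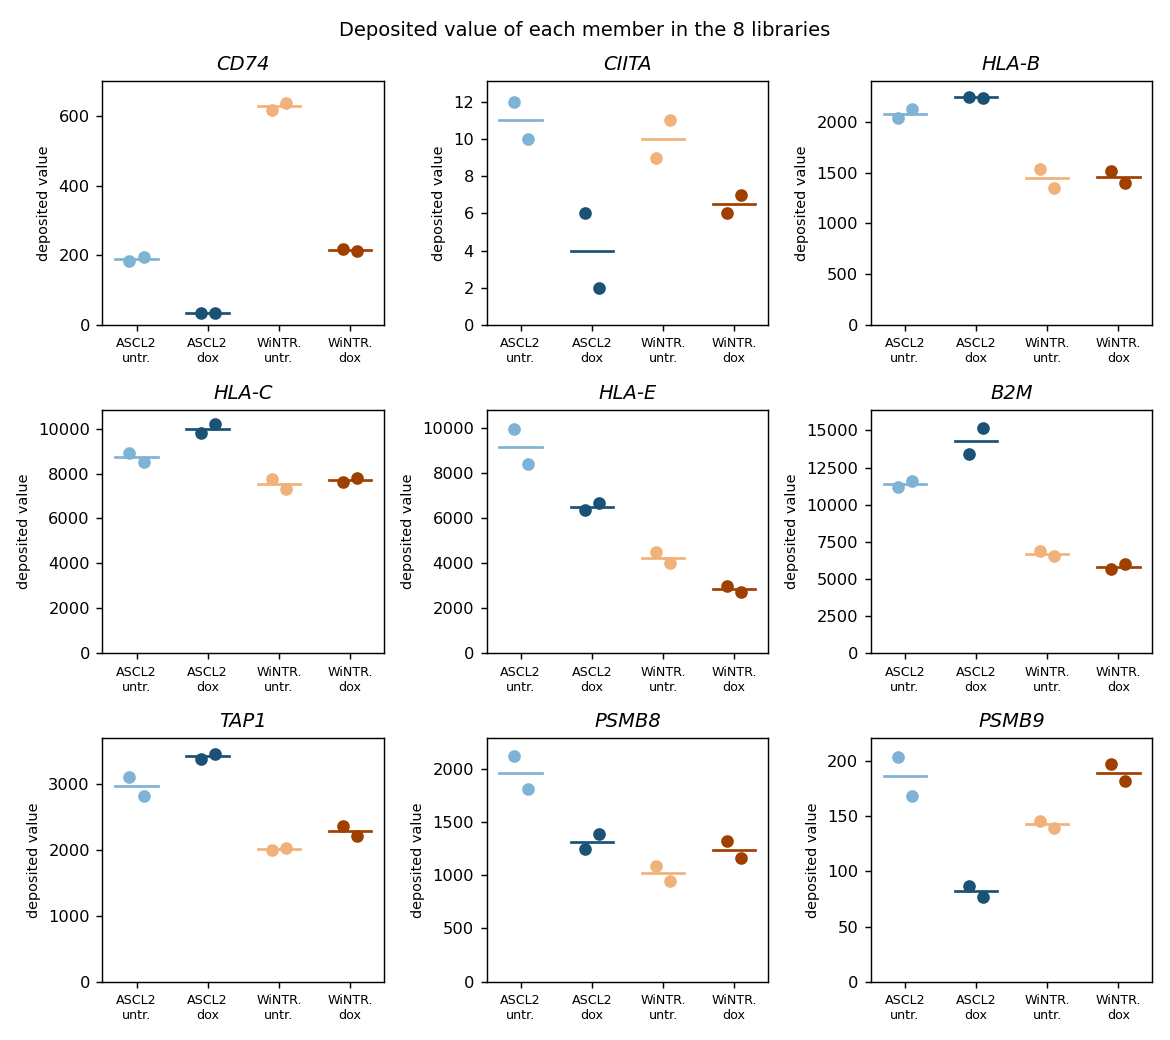
Deposited value (vertical axes, linear from 0, a separate scale per gene) of the 9 genes in the 8 libraries, with points for libraries and lines for group means of untreated (untr.) and doxycycline-treated (dox) cells of the ASCL2 and WiNTRLINC1 (WiNTR.) lines. CD74 is lower with doxycycline in both lines, while PSMB9 is at 204 and 168 untreated and 87 and 77 treated in the ASCL2 line and stands higher with doxycycline in the WiNTRLINC1 line.

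CD74 was present with almost no class II chains. The 7 class II alpha and beta chain genes in the list (HLA-DRA, HLA-DRB1, HLA-DRB5, HLA-DPA1, HLA-DPB1, HLA-DQA1 and HLA-DQB1) summed to between 7 and 48 per library, and the highest single value was 16, for HLA-DQB1 in an untreated WiNTRLINC1 library. Of the 11 class II genes listed, 9 were below the filter on low values (at least 10 in at least 2 libraries). The exception with a clear level was HLA-DMA, the alpha chain of the peptide exchanger HLA-DM. It stood at 192 and 217 untreated and 106 and 92 treated in the ASCL2 line, and at 567 and 592 against 444 and 424 in the WiNTRLINC1 line. HLA-DMA fell 2.06-fold in the ASCL2 line (log2 difference -1.04 ± 0.133; limma, Benjamini-Hochberg adjusted p = 4.47e-05). A fall of HLA-DMA was also called for the WiNTRLINC1 line, 1.33-fold (limma, -0.42 ± 0.133, adjusted p = 0.041). The latter call was lost without any 1 of the 4 libraries of that line (adjusted p from 0.112 to 0.19) and with library number as a block (0.0539). Its partner chain HLA-DMB stood between 1 and 8. The ratio of CD74 to HLA-DMA was 0.964 and 0.903 in untreated ASCL2 cells and 1.09 and 1.08 in untreated WiNTRLINC1 cells, and with doxycycline it was 0.311 and 0.359, and 0.491 and 0.498. Treated libraries were thus lower in this ratio in both lines.

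Of the proteases that act in the class II compartment, cathepsin D (CTSD) rose 1.46-fold in the ASCL2 line (limma, Benjamini-Hochberg adjusted p = 0.000162), cathepsin B (CTSB) rose 1.34-fold (adjusted p = 0.000903) and the asparaginyl endopeptidase LGMN rose 1.31-fold (adjusted p = 0.0143). SPPL2A, the intramembrane protease that clears the last membrane-bound fragment of CD74, fell 1.57-fold (adjusted p = 0.00389), from 463 and 468 to 339 and 260. The calls of CTSD and CTSB held under all 17 alternatives. When limma was fitted without a mean-variance trend, LGMN (adjusted p = 0.116) and SPPL2A (0.0557) were lost, and LGMN also without a filter (0.104). LGMN was lost without the second untreated or the second treated library (adjusted p = 0.0865 and 0.172), and SPPL2A without the second treated library (0.0725). For WiNTRLINC1 cells limma called 0 of the 6 genes of this list that were tested, with 1 at an unadjusted p under 0.05, beside 18.6% called of all genes, so this count says little about the list. Cathepsin S (CTSS), the main protease of CD74 in immune cells, stood between 13 and 52 and passed in no comparison.

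CD44, the signalling partner of CD74 at the surface, moved in opposite directions. It rose 1.21-fold in the ASCL2 line (limma, Benjamini-Hochberg adjusted p = 0.0103), from 7026 and 6836 to 8473 and 8280. Among WiNTRLINC1 libraries CD44 fell 1.42-fold (adjusted p = 0.000137), from 9136 and 10046 to 6586 and 6872. The difference of the responses was -0.78 on the log2 scale (limma, Benjamini-Hochberg adjusted p = 8.55e-05). The rise in the ASCL2 line was lost without the second untreated (adjusted p = 0.0614) or the first treated library (0.0672). The ligand MIF did not pass in either line, at 0.18 and -0.21 on the log2 scale, and the receptors CXCR2 and CXCR4 stood at 10 or below in every library.

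Of the 2 protein-coding genes on each side of CD74 on chromosome 5 (in the RefSeq gene table), RPS14, a ribosomal protein gene, fell 1.40-fold in the ASCL2 line (limma, Benjamini-Hochberg adjusted p = 0.00325) and TCOF1, a nucleolar factor, fell 1.22-fold (adjusted p = 0.0111). Both calls were lost without the first treated library of that line (adjusted p = 0.0623 and 0.112), and that of TCOF1 also without the first untreated one (0.0829). NDST1 did not pass in either line and ARSI was below the filter. RPS14 has several annotated pseudogene copies, so its reads may be split and its value is uncertain. For the WiNTRLINC1 line, TCOF1 stood at 0.00, RPS14 at -0.18 and NDST1 at 0.15 on the log2 scale, and limma gave adjusted p of 0.982, 0.281 and 0.257. TCOF1 was 2.00-fold higher in the untreated WiNTRLINC1 line than in the untreated ASCL2 line (adjusted p = 3.7e-08), the same direction as CD74.

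The genes whose log2 values followed CD74 most closely over the 8 libraries, among 12566 genes with a symbol and a mean value of at least 100, were POP5, a subunit of ribonuclease P (Pearson r = 0.998), the stem cell marker SMOC2 (0.998), the mitotic regulator CDC20 (0.997), ZBED4 (0.995) and ARID5B (0.995). These points share libraries and line differences, so the values are a description. SMOC2 stood at 953 and 997 untreated and 135 and 137 treated in the ASCL2 line, and at 3995 and 3895 against 1249 and 1392 in the WiNTRLINC1 line. ARID5B stood at 563 and 611 against 319 and 336, and at 829 and 926 against 605 and 634.

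The classical heavy chains HLA-B and HLA-C differed by 14.6% or less between treated and untreated means in either line. HLA-B stood at 2037 and 2128 untreated and 2247 and 2241 treated in the ASCL2 line, and at 1539 and 1355 against 1516 and 1403 in the WiNTRLINC1 line. HLA-C stood at 8910 and 8520 against 9784 and 10191, and at 7751 and 7316 against 7623 and 7808. Both were slightly higher with doxycycline in the ASCL2 line, without overlap, by 0.11 ± 0.0842 for HLA-B and 0.20 ± 0.0688 for HLA-C on the log2 scale (SE, n = 2 per group), and overlapped in the WiNTRLINC1 line, at 0.01 ± 0.0842 and 0.03 ± 0.0688. The sign of the small difference of HLA-B in the WiNTRLINC1 line turned with a library left out, from 0.11 without the first untreated library to -0.08 without the second.

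HLA-E, a non-classical heavy chain that is read by NKG2A receptors of natural killer cells, had lower values in the treated libraries of both lines. It stood at 9943 and 8407 untreated and 6343 and 6662 treated in the ASCL2 line, and at 4492 and 4004 against 2999 and 2702 in the WiNTRLINC1 line. The groups did not overlap in either line, and the log2 differences were -0.49 ± 0.0908 and -0.58 ± 0.0908 (SE, n = 2 per group), which differ by -0.08 ± 0.128. Untreated ASCL2 cells had 2.16-fold more HLA-E than untreated WiNTRLINC1 cells, so the 4 groups formed an order without overlap between neighbours.

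B2M, the light chain of all these molecules, differed in opposite directions. It stood at 11217 and 11621 untreated and 13390 and 15151 treated in the ASCL2 line, and at 6894 and 6518 against 5645 and 5994 in the WiNTRLINC1 line. Treated libraries were above untreated ones in the first line and below them in the second, by 0.32 ± 0.0765 and -0.20 ± 0.0765 on the log2 scale. Per kilobase of principal transcript B2M stood between 5383 in treated WiNTRLINC1 cells and 13200 in treated ASCL2 cells, and HLA-C between 4905 and 6502. B2M has 3 principal transcripts of 943 to 1705 bases, of which the median, 1081 bases, was used, and in the WiNTRLINC1 line the order of B2M and HLA-C depends on that choice. CD74 was among the lowest, at 33.6 to 641 per kilobase. CIITA was left out of this comparison because its annotated principal transcript, at 16059 bases, is far longer than those of the other members.

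HLA genes resemble each other, and reads can be shared or lost. In the GENCODE 29 transcripts, 1.72% of the windows of 75 bases of HLA-C and 2.02% of those of HLA-E also occurred in transcripts of another gene, against 0.0% for HLA-B. These shares are for the reference alleles, and the alleles of LS174T can differ. Annotated transcripts of HLA-B also overlap HLA-C on the same strand.

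The other heavy chains and class I-like molecules moved in separate ways. MICA, a stress-induced ligand of the NKG2D receptor, rose 1.99-fold in the ASCL2 line (limma, Benjamini-Hochberg adjusted p = 1.17e-06), from 623 and 637 to 1202 and 1313. WiNTRLINC1 cells showed a rise of 1.61-fold (adjusted p = 4.95e-05), from 1440 and 1296 to 2221 and 2192. MICB, a second NKG2D ligand, rose 1.97-fold in the ASCL2 line (adjusted p = 1.63e-05), from 381 and 332 to 668 and 735. MICB in the WiNTRLINC1 line stood at 531 and 540 untreated and 453 and 410 treated and did not pass (adjusted p = 0.0674). The responses of MICB differed by -1.29 (log2; limma, Benjamini-Hochberg adjusted p = 5.88e-05), and those of MICA did not pass (-0.30, adjusted p = 0.117). HFE, which regulates iron uptake, fell 1.24-fold and 1.38-fold (adjusted p = 0.0248 and 0.00259), and the first of these calls was lost without either untreated library (0.0731 and 0.0987) or the first treated library (0.228) of the ASCL2 line. The call of HFE in the WiNTRLINC1 line was lost when limma was fitted without a mean-variance trend (adjusted p = 0.0547). FCGRT, the IgG transport receptor, fell 1.38-fold in the WiNTRLINC1 line (adjusted p = 0.00109). HLA-F, HLA-G and MR1 did not pass in either line, and CD1D was below the filter.

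PSMB9 and PSMB8, 2 of the catalytic subunits of the immunoproteasome, were lower with doxycycline in the ASCL2 line and higher in the WiNTRLINC1 line. PSMB9 stood at 204 and 168 untreated and 87 and 77 treated in the ASCL2 line, and at 146 and 139 against 197 and 182 in the WiNTRLINC1 line. PSMB8 stood at 2122 and 1807 against 1248 and 1385, and at 1089 and 950 against 1318 and 1159. Neither gene's treated and untreated libraries overlapped in either line. The log2 differences were -1.17 ± 0.170 and 0.41 ± 0.170 for PSMB9, and -0.57 ± 0.105 and 0.28 ± 0.105 for PSMB8 (SE, n = 2 per group). PSMB8 overlapped between the treated groups of the 2 lines, and PSMB9 between treated WiNTRLINC1 and untreated ASCL2 cells.

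PSMB10, the remaining immunoproteasome subunit, fell 1.65-fold in the ASCL2 line (limma, Benjamini-Hochberg adjusted p = 0.0254), from 200 and 173 to 116 and 109. That call was lost without any 1 of the 4 libraries of the line (adjusted p from 0.0569 to 0.152). PSMB10 stood at 77 and 54 untreated and 54 and 45 treated in the WiNTRLINC1 line and did not pass there. Of the constitutive counterparts, PSMB6 and PSMB7 each rose 1.26-fold in the ASCL2 line (adjusted p = 0.00286 and 0.00628), and PSMB5 did not pass. The call of PSMB7 was lost without the second untreated (0.0605) or the second treated library (0.09). PSMB5 rose 1.27-fold in the WiNTRLINC1 line (adjusted p = 0.0079), a call lost without the second untreated (0.0744) or the first treated library (0.0756). PSME2, a subunit of the interferon-inducible proteasome activator, fell 1.46-fold in the ASCL2 line (adjusted p = 0.000269), from 3154 and 3546 to 2197 and 2388, while its partner PSME1 did not pass in either line.

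Within a library the ratio of each immunoproteasome subunit to its constitutive counterpart was also compared. PSMB9 to PSMB6 was 0.0655 and 0.0565 untreated and 0.0234 and 0.0195 treated in the ASCL2 line, and 0.0516 and 0.0485 against 0.0610 and 0.0572 in the WiNTRLINC1 line. PSMB8 to PSMB5 was 0.473 and 0.465 against 0.313 and 0.338, and 0.219 and 0.206 against 0.213 and 0.196. PSMB10 to PSMB7 was 0.0648 and 0.0605 against 0.0327 and 0.0276, and 0.0268 and 0.0192 against 0.0183 and 0.0140. All 3 ratios were lower with doxycycline in the ASCL2 line without overlap. Among WiNTRLINC1 libraries PSMB9 to PSMB6 was higher without overlap, PSMB8 to PSMB5 overlapped and PSMB10 to PSMB7 was lower.

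TAP1 was slightly higher with doxycycline in both lines, while its partner TAP2 fell in the ASCL2 line. TAP1 stood at 3098 and 2823 untreated and 3383 and 3448 treated in the ASCL2 line, and at 2002 and 2031 against 2354 and 2211 in the WiNTRLINC1 line, a log2 difference of 0.21 ± 0.0759 and 0.18 ± 0.0759 (SE, n = 2 per group). TAP2, the subunit that pairs with TAP1, fell 2.54-fold in the ASCL2 line (limma, Benjamini-Hochberg adjusted p = 8.42e-07), from 444 and 475 to 187 and 173. TAP2 in the WiNTRLINC1 line stood at 438 and 476 untreated and 553 and 547 treated and did not pass (adjusted p = 0.123). The responses of TAP2 differed by 1.62 (log2; limma, Benjamini-Hochberg adjusted p = 9.67e-06), and both this call and that of the fall held under all alternatives run. The ratio of TAP1 to TAP2 was 6.98 and 5.94 in untreated and 18.1 and 19.9 in treated ASCL2 cells, and 4.57 and 4.27 against 4.26 and 4.04 in WiNTRLINC1 cells.

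**Figure D2:**
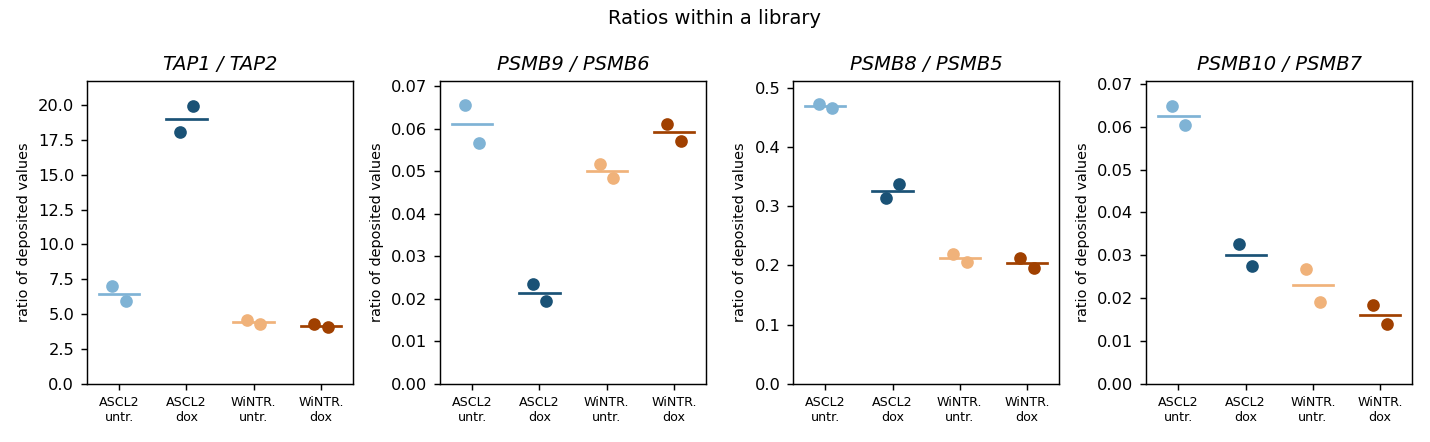
Ratio of deposited values within each library (vertical axes, linear from 0) for TAP1 to TAP2 and for the immunoproteasome subunits PSMB9, PSMB8 and PSMB10 to their constitutive counterparts, with points for libraries and lines for group means. In the treated ASCL2 libraries the ratio of TAP1 to TAP2 is 18.1 and 19.9 and the 3 subunit ratios are lower than in the untreated ones of that line.

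PSMB8, TAP1, PSMB9 and TAP2 lie side by side in the class II region of chromosome 6, and the annotation bears on their values. In GENCODE 29 PSMB9 overlaps both TAP1 and PSMB8, which are on the opposite strand, and the lincRNA PSMB8-AS1, with which it shares 7.39% of its windows of 75 bases. Whether reads were counted by strand is stated nowhere in the sources used here, and reads from these genes cannot be told apart where they overlap. PSMB8-AS1 stood between 29 and 145, and PSMB9, at 77 to 204, was far below TAP1 at 2002 to 3448. The genes whose log2 values followed PSMB9 most closely over the 8 libraries were NAP1L4 (Pearson r = 0.983), SMIM7 (0.981), SUMF1 (0.979), PIAS4 (0.979) and CNOT10 (0.978), none of which belongs to the lists here.

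Further along the loading pathway, TAPBP, which encodes tapasin and bridges the transporter to the heavy chain, fell 1.89-fold in WiNTRLINC1 cells (limma, Benjamini-Hochberg adjusted p = 4.17e-06), from 1099 and 1004 to 536 and 573. In the ASCL2 line it stood at 1439 and 1368 against 1436 and 1372, and the difference of the responses was -0.92 on the log2 scale (limma, Benjamini-Hochberg adjusted p = 0.000133). PDIA3, the disulfide isomerase of the loading complex, rose in both lines, 1.24-fold and 1.34-fold (adjusted p = 0.00535 and 0.000813). The chaperone CANX rose 1.30-fold in the ASCL2 line (adjusted p = 0.0027), where TAPBPL, a tapasin-like peptide editor, fell 1.36-fold (adjusted p = 0.024). In that line the calls of PDIA3 and CANX were lost when limma was fitted without a mean-variance trend (adjusted p = 0.0735 and 0.0644). The call of TAPBPL was lost without either untreated library (0.0625 and 0.104) or the first treated library (0.209). The trimming peptidases ERAP1 and ERAP2 and the chaperone CALR did not pass in either line.

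**Figure D3:**
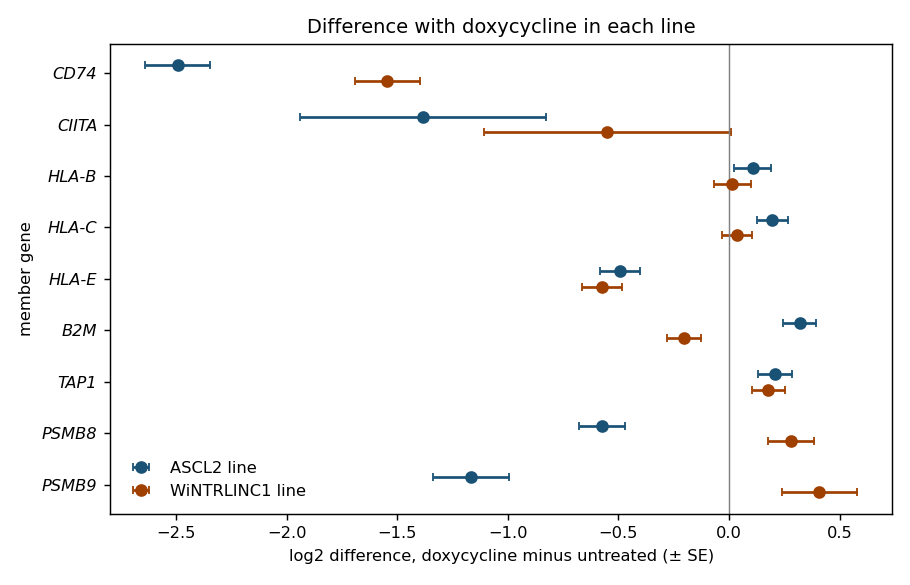
Log2 difference of the deposited value, doxycycline minus untreated (horizontal axis), of the 9 genes in the ASCL2 and WiNTRLINC1 lines, with bars for the standard error of the fit over all 8 libraries. CD74 lies at -2.49 and -1.55 and HLA-E at -0.49 and -0.58, while PSMB9, PSMB8 and B2M lie on opposite sides of 0 in the 2 lines.

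Among the regulators, NLRC5, the class I counterpart of CIITA, stood at 1341 and 1315 untreated and 1538 and 1752 treated in the ASCL2 line. It rose 1.24-fold there (limma, Benjamini-Hochberg adjusted p = 0.0224), a call lost without either untreated library (0.0691 and 0.0957) or the second treated library (0.222), and did not pass in the WiNTRLINC1 line. The subunits of the RFX complex differed by line: RFXANK fell 1.59-fold in the ASCL2 line (adjusted p = 0.000123) and RFX5 fell 1.54-fold in the WiNTRLINC1 line (adjusted p = 2.92e-05). The difference of the responses passed for both, at 0.59 for RFXANK and -0.59 for RFX5 on the log2 scale (limma, Benjamini-Hochberg adjusted p = 0.0081 and 0.00113). That of RFXANK was lost without the first treated library of the ASCL2 line (0.0522). NFYB, a subunit of NF-Y, fell 1.66-fold in the ASCL2 line (adjusted p = 0.000944), while NFYA and NFYC did not pass. The interferon gamma receptor chains IFNGR1 and IFNGR2 rose in the ASCL2 line, 1.30-fold and 1.46-fold (adjusted p = 0.0112 and 0.000183), and IFNGR1 also in the WiNTRLINC1 line, 1.38-fold (adjusted p = 0.00478). IFNGR1 was lost in the ASCL2 line without the first untreated (0.107) or the second treated library (0.12), and in the WiNTRLINC1 line without the first treated library (0.0657). The interferon response factor IRF1 did not pass in either line, at 0.09 and -0.09 on the log2 scale. The interferon-regulated factor IRF2 fell 1.29-fold in the ASCL2 line (adjusted p = 0.022), a call lost without any 1 of the 4 libraries of that line (adjusted p from 0.05 to 0.151). The kinase JAK1 rose 1.25-fold in the WiNTRLINC1 line (adjusted p = 0.008), a call lost without the first untreated (0.0855) or either treated library (0.0501 and 0.0591). SOCS1, a target and inhibitor of this pathway, was below the filter.

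**Figure D4:**
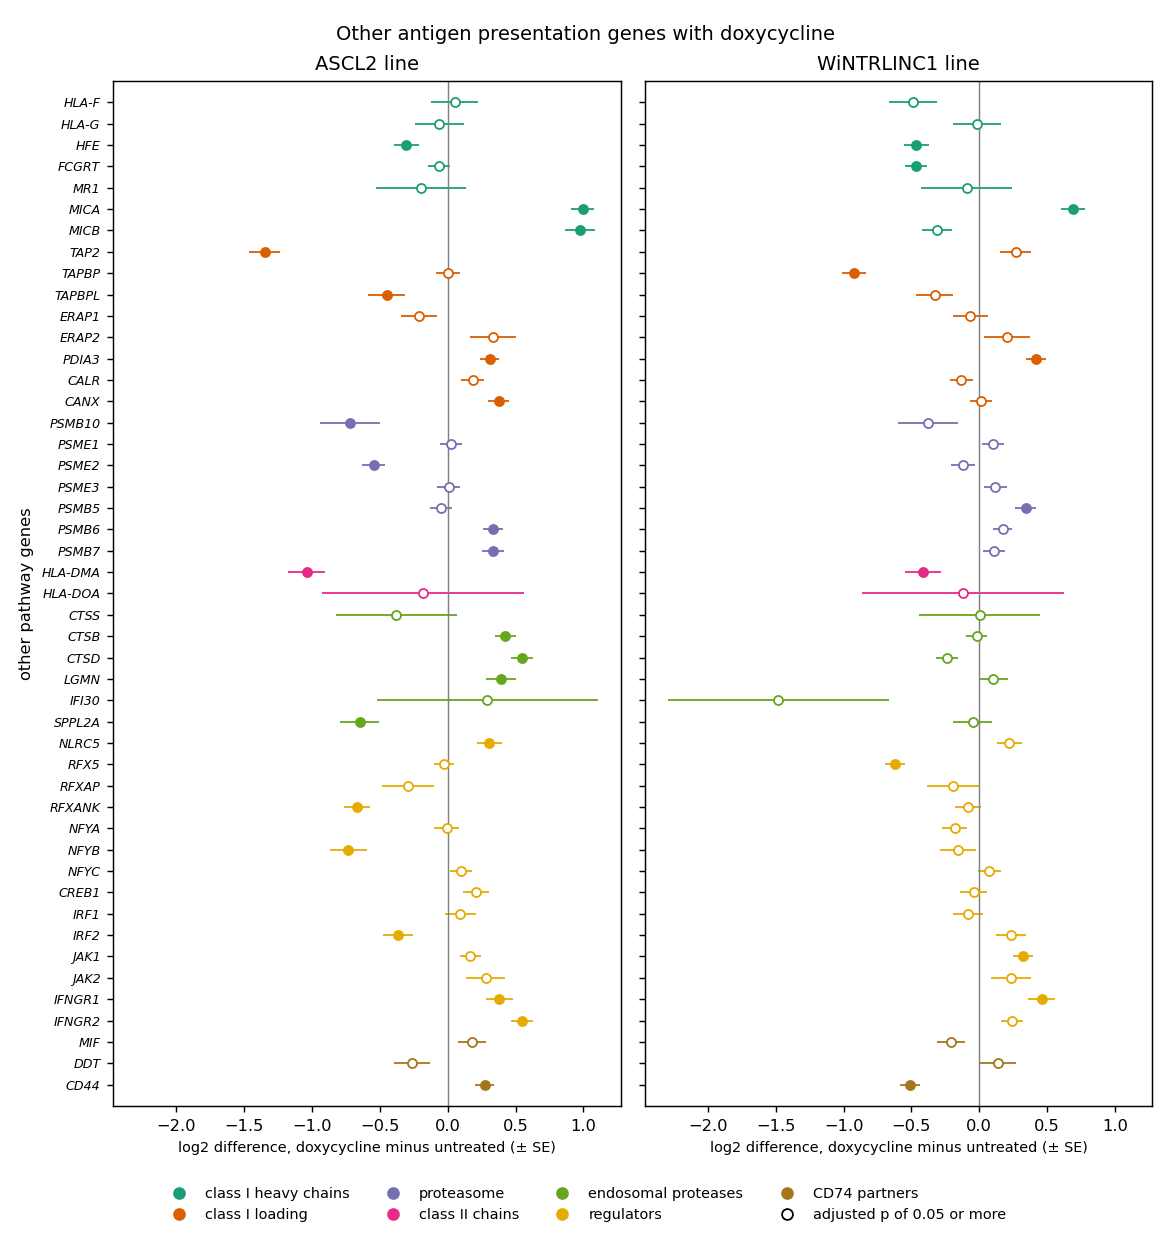
Log2 difference, doxycycline minus untreated (horizontal axes, bars for the standard error), of the other pathway genes that passed the filter and are reported here, in the ASCL2 line (left) and the WiNTRLINC1 line (right), coloured by list, with filled points for genes called by limma. In the ASCL2 line TAP2 and HLA-DMA are the lowest of the called genes and MICA and MICB the highest, and in the WiNTRLINC1 line TAPBP is the lowest and MICA the highest of the called genes.

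Counted over the 7 lists, 49 of 63 genes passed the filter. As the lists were chosen with earlier results of these data known, the shares called are a description. In the ASCL2 line 14 rose, 10 fell and 25 did not pass (limma, Benjamini-Hochberg), which is 49.0% called beside 26.6% of all 22100 genes tested, with a median log2 difference of 0.03 against 0.01 over all genes. In the WiNTRLINC1 line 5 rose, 6 fell and 38 did not pass, or 22.4% called beside 18.6% of all genes, with medians of -0.05 and 0.01. Of the genes called, 11 of 24 and 6 of 11 were called under all 17 alternatives. Both lines called 6 genes, 25.0% of the calls in the ASCL2 line and 54.5% of those in the WiNTRLINC1 line: HFE and HLA-DMA fell and MICA, PDIA3 and IFNGR1 rose in both, and CD44 moved in opposite directions. Over all genes, 9.07% were called in both lines, which is 34.1% of the calls in the ASCL2 line and 48.9% of those in the WiNTRLINC1 line. The count of calls in the lists was 15 in the ASCL2 line without its second untreated library, and 7 in the WiNTRLINC1 line without its first treated library. By group in the ASCL2 line, the class I heavy chains had 3 of 8 rising and 1 falling, class I loading 2 of 8 rising and 2 falling, the proteasome list 2 of 7 each way, the endosomal proteases 3 of 6 rising and 1 falling, and the regulators 3 of 15 each way.

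Among the 9 genes themselves, the same threshold would call 6 in the ASCL2 line (2 higher and 4 lower), beside 26.6% of all genes, 13.9% higher and 12.7% lower. In the WiNTRLINC1 line it would call 2, CD74 and HLA-E, both lower, beside 18.6% of all genes, 9.54% higher and 9.03% lower. CD74 and HLA-E would be called lower in both lines, as 2.95% of all genes were. Treated and untreated libraries did not overlap for 9 of the 9 in the ASCL2 line (4 higher and 5 lower), beside 60.6% of all genes, 30.8% higher and 29.8% lower. For the WiNTRLINC1 line this held for 7 of the 9 (3 higher and 4 lower), beside 54.8% of all genes, 28.2% higher and 26.5% lower. For the difference of the responses between the lines the same threshold would call 4 of the 9, 3 with a higher and 1 with a lower response in the WiNTRLINC1 line, beside 15.0% of all genes, 7.39% higher and 7.6% lower. As the genes were chosen with these comparisons in view, nothing is read from those counts. The median log2 difference of the 9 genes was -0.49 (ASCL2 line) and 0.01 (WiNTRLINC1 line), and that of all genes was 0.01 in both.

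Before any doxycycline the lines already differed. Of the 9 genes, 7 were lower in the untreated WiNTRLINC1 line than in the untreated ASCL2 line without overlap, CD74 alone was higher, and CIITA overlapped, where 40.0% of all genes were lower and 35.7% higher without overlap, 75.7% in all. The threshold would call 7 of the 9, 6 lower and 1 higher, beside 29.5% and 25.7% of all genes. On the log2 scale HLA-E was -1.11 ± 0.0908, PSMB8 -0.94 ± 0.105, B2M -0.77 ± 0.0765, TAP1 -0.55 ± 0.0759 and HLA-B -0.53 ± 0.0842 (SE, n = 2 per group). HLA-C and PSMB9 had smaller differences, -0.21 ± 0.0688 and -0.38 ± 0.170. In the 7 lists 16 genes were higher and 17 lower (limma, Benjamini-Hochberg), 67.3% called beside 55.2% of all genes. The difference of the doxycycline responses between the lines was called for 14 of the 49, or 28.6%, beside 15.0% of all genes. Both shares are a description, as the lists were chosen with earlier results known. The interferon gamma receptor chains were lower in the WiNTRLINC1 line, IFNGR1 (1.75-fold, adjusted p = 7.81e-06) and IFNGR2 (1.62-fold, adjusted p = 4.33e-06). PSMB10 was 2.86-fold lower (adjusted p = 3.75e-05), HLA-F 2.42-fold (adjusted p = 2.2e-05), CTSD 2.51-fold (adjusted p = 4.53e-09) and FCGRT 2.36-fold (adjusted p = 1.23e-08). HLA-DMA, as CD74, was higher in the WiNTRLINC1 line, 2.83-fold (adjusted p = 2.25e-07), and so were MICA, 2.17-fold (adjusted p = 5.63e-08), ERAP1, 2.18-fold (adjusted p = 3.63e-06), and NLRC5, 1.49-fold (adjusted p = 7.97e-05). Each of these 10 calls held under all 16 alternatives. The comparison of untreated lines shares its libraries with the comparisons within each line, so their values stand side by side and are not independent.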

How the data were processed

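RNA from 8 LS174T samples was sequenced on Ion Proton chips, per the labels' protocols. The submitters' processing notes name cutadapt, TopHat2 2.0.9, Cufflinks, DESeq and the builds hg19, GRCh37 and mm9. For the read counting, the program, annotation and strand setting were not given in the sources used here. Per Ensembl gene and library the authors deposited 1 value, a score on no stated scale: whole numbers with totals between 21524463 and 22941231, which behave as read counts scaled per library and rounded. They are not raw counts, so no count model was used and the true depth is unknown.

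Groups follow the sample titles. Values were taken as log2(value + 1), filtered to at least 10 in at least 2 libraries (22100 genes), and fitted as 4 groups of 2 with limma 3.58.1 in R 4.3.3, with a mean-variance trend (4 residual and 10.5 prior degrees of freedom). The contrasts were doxycycline against untreated in each line, the untreated lines, and the difference of the responses. A call is an adjusted p under 0.05 (Benjamini-Hochberg, over all 22100 genes). The fits were also run on simulated counts that had the same dispersion setting for every gene and no difference between the lines. That setting is simpler than these data, so the run is a check of the fitting steps and not of the error rate here. The 9 genes and the lists were chosen with earlier results of these data known. Named are the 9 genes, called genes of the 7 lists (some list genes are counted but not reported here by name), the 4 neighbours of CD74, the 5 genes most correlated with CD74 and with PSMB9, and ASCL2. Transcript lengths and shared windows came from GENCODE 29 and promoters from RefSeq GRCh38.p14, another build than those of the notes, and no coordinates were carried between builds. Alternatives were another pseudocount (0.5 or 5), filter, scaling, trend setting, set of libraries, a replicate block, and each library left out. Calls of list genes and neighbours named as lost with a library left out were also lost without the trend, and some without the filter.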

Additional observations from a re-analysis of the deposited data

Results flagged for a closer look

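The responses to doxycycline differed between the lines for 14 of the 49 other pathway genes tested (limma with Benjamini-Hochberg adjustment, WiNTRLINC1 line minus ASCL2 line, log2 scale). That is 28.6%, beside 15.0% of all genes, for lists chosen with earlier results known. TAP2 (1.62), HLA-DMA (0.62), IRF2 (0.60), RFXANK (0.59), PSME2 (0.43) and PSMB5 (0.39) had a higher response in the WiNTRLINC1 line. MICB (-1.29), TAPBP (-0.92), CD44 (-0.78), CTSD (-0.78), RFX5 (-0.59), CTSB (-0.44), FCGRT (-0.40) and CANX (-0.36) had a lower one. The calls of TAP2, MICB, TAPBP, CD44, CTSD and RFX5 held under all 16 alternatives, and the other 8 were each lost under at least 1 of them. Leaving out the second untreated ASCL2 library, the second treated ASCL2 library or the second treated WiNTRLINC1 library gave 9, 9 and 8 calls in place of 14.

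Among the 9 genes, every treated library of B2M, PSMB8 and PSMB9 lay on one side of the untreated ones in the ASCL2 line and on the other side in the WiNTRLINC1 line. Separation of treated from untreated libraries was common: 60.6% of all genes showed it among ASCL2 libraries and 54.8% among WiNTRLINC1 libraries, in either direction. The share of all genes with opposite sides between the lines was not counted, so how unusual this pattern is was not tested. The responses differed by -0.52 for B2M, 0.86 for PSMB8 and 1.58 for PSMB9 on the log2 scale. The threshold applied to all genes would call each of these differences, but as the genes were chosen with the results known this is a description, and the difference was not tested independently.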

How the results depend on the processing

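No difference of the 9 genes past the threshold changed sign under any alternative run, and 540 of 589 recomputed values moved by less than the spread between replicates. For the tested list genes together with the tested neighbours of CD74, 3189 of 3396 values kept their side of the threshold, 182 lost it and 25 gained it, with 0 reversals. Calls over all genes numbered 5884, 4104 and 3314 (ASCL2 line, WiNTRLINC1 line, difference of responses). Without the mean-variance trend they were 3410, 1873 and 1313, and without a filter 2395 in the WiNTRLINC1 line and 1914 for the difference. Calls in the lists, 24, 11 and 14, became 11, 7 and 6 without the trend, and 6 for the difference without a filter. With 1 library left out, calls over all genes ranged from 3665 to 5862, 2398 to 4131 and 2315 to 2891, and from 10458 to 12002 between untreated lines. Those in the lists ranged from 15 to 24, 7 to 12 and 8 to 12, and from 27 to 32 between untreated lines. An arm left with 1 library is assumed to vary like the others. The cause of these shifts was not tested, beyond the fewer libraries or added genes of each setting.

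Over genes, the deviations of same-numbered libraries from their group means were little correlated (-0.0521 for ASCL2 and 0.105 for WiNTRLINC1 libraries, 2 pairs each). With 2 libraries per group the pairs of a line mirror each other, so this cannot show whether the libraries were paired. With the replicate block, calls over all genes were 6148, 4298 and 3511 and those in the lists 24, 11 and 15. Values near 10, as for CIITA and the class II chains, limit what these libraries can show.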
